A study of Mus musculus with 5 samples.

Results

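CBX2 peaks were examined at 10 genes that cells switch on quickly or transcribe heavily, among 22380 protein-coding genes of the annotation. The genes were the AP-1 subunits Junb, Fos and Jun, the other immediate early genes Egr1, Ier2, Ier3 and Myc, the stress-response factors Ddit3 and Atf3, and the cytoskeletal actin gene Actb. They were chosen by results of these data, since the starts of Junb, Ddit3 and Ier3 lay in narrow peaks of the Control list alone and that of Actb in Control and K27M peaks. The presence of peaks at these 4 genes, and the narrow width of the first 3, are therefore a description and support nothing further. For each gene, peaks were sought on the gene body extended by 5000 bp on each side.

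The samples were mouse embryonic fibroblasts (MEFs) from a mid-gestation embryo in which loxP sites flank exons of Eed, which encodes a subunit of Polycomb Repressive Complex 2 (PRC2). Control cells were labelled as the parental line. The EZHIP and K27M cells were derived from it with lentiviruses that stably express human EZHIP, a protein of posterior fossa ependymomas that inhibits PRC2, or the mutant histone H3.3 K27M, which also inhibits PRC2. All 3 lines keep the floxed alleles without Cre, and the methods name an EF1a promoter vector with puromycin selection for the transgenes, whereas no vector is named for Control. CBX2 was immunoprecipitated from 1 library of each line, so no difference between lists has a replicate check and no p-value was computed. The remaining 2 of the 5 libraries, K27R and EEDnull, were not analysed here.

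CBX2 is a chromobox subunit of Polycomb Repressive Complex 1 (PRC1), which can bind histone H3 trimethylated at lysine 27, the product of PRC2, and holds developmental genes silent. Immediate early genes work in another way. Their short transcription units are transcribed within minutes of serum, growth factor or stress signals without new protein synthesis, and many encode transcription factors that act on later genes. Actin and other housekeeping genes are transcribed at high rates in fibroblasts at all times. No RNA was measured in these files, so the activity of the genes in these cells was not checked. Nor were the cells' identities: of 10 fibroblast marker genes such as Col1a1 and Thy1, 0 had a peak within 5000 bp in any list, and CBX2 peaks do not measure expression.

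The peaks at these genes began at the 5′ end of the transcription unit rather than spreading to both sides of it. At every member with a Control peak, its upstream edge fell within the 250 bases before the annotated start. These bases are shown for Junb, Ddit3, Ier3 and Ier2, so that the place of the edge can be seen. Each line reads 5′ to 3′ along the gene (mm9), and capitals mark the bases inside the Control peak. Peak edges are known to the 200 bp bin of the peak caller.
Junb (chr8:87502618-87502867, minus strand): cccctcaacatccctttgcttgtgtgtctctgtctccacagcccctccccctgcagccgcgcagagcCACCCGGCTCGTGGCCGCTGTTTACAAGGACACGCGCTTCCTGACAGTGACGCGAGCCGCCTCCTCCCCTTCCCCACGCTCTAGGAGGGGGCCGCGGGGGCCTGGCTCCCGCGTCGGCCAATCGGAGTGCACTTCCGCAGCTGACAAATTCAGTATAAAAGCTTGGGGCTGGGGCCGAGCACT
Ddit3 (chr10:126727580-126727829, plus strand): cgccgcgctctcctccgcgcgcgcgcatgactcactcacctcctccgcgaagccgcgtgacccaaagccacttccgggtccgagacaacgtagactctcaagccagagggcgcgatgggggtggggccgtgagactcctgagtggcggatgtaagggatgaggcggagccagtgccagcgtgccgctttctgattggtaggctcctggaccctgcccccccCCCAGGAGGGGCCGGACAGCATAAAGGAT
Ier3 (chr17:35958379-35958628, plus strand): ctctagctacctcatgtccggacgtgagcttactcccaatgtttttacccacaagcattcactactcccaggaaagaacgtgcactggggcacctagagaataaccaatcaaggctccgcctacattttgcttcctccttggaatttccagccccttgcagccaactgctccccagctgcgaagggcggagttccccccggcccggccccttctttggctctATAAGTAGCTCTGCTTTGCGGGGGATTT
Ier2 (chr8:87186752-87187001, minus strand): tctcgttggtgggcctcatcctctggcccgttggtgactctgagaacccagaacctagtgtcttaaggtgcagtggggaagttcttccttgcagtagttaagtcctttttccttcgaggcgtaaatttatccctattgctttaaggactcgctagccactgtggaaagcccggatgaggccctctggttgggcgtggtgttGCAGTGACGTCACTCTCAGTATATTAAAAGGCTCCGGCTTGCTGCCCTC
The called Control peak held 183 of these bases at Junb, 49 at Ier2, 29 at Ddit3 and 28 at Ier3. All of these reaches are smaller than the 200 bp bin, so which promoter bases were bound cannot be told. The Ddit3 window overlapped an exon of the noncoding transcript RP24-341K21.6, and the other windows shown overlapped no annotated exon.

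In Control cells 6 of the 10 genes had a CBX2 peak, and each of these peaks contained the annotated 5′ end. Junb, Ddit3, Ier3 and Actb among them had been chosen for their Control peaks, so this count and those below only describe the members. The others were Egr1 and Ier2. Across all protein-coding genes, 1.49% had a Control peak on the extended gene body and 0.903% had their 5′ end in one. The EZHIP list had a peak at 1 of the 10 genes, Egr1, against 1.44% of all genes by the extended body and 0.894% by the 5′ end. The K27M list had a peak at 3 of them, Egr1, Ier2 and Actb, against 1.78% and 1.19%. Fos, Jun, Myc and Atf3 had no peak in any list. By the 5′ end, only 3 of the 10 genes thus had the pattern of Control alone, which 0.0581% of all genes showed (13 genes). A Control peak that overlapped no peak of another list held the start of 0.0223% of genes (5 genes), the same 3 members among them. Of the other members, 1 was held by all lists (0.657% of genes) and 2 by Control and K27M but not EZHIP (0.13%). No member had its 5′ end in a peak of EZHIP alone (0.139% of genes) or of K27M alone (0.366%). By the stricter rule of a peak that overlapped no other list, these shares of genes were 0.0715% and 0.246%, again with no member. Counted pairwise, 5 members were in a Control and not an EZHIP peak (0.188% of genes) and 3 in a Control and not a K27M peak (0.116%). In a bulk library, strong CBX2 binding in some cells and weak binding in many cannot be told apart, and a gene missing from a list had no called peak at an unknown read depth, which is not a measurement of absent CBX2.

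**Figure D1:**
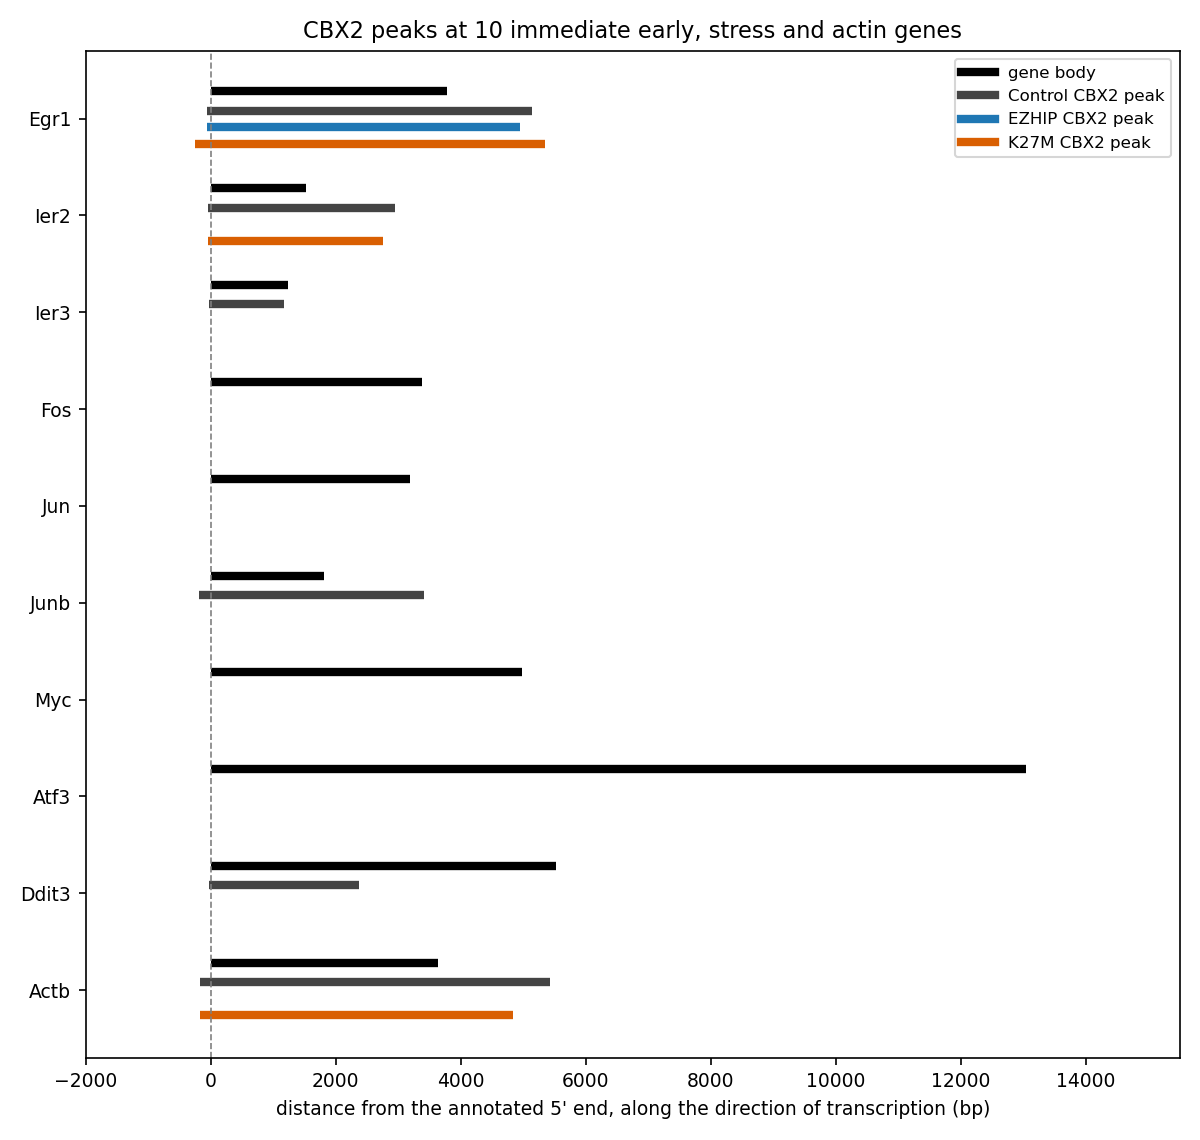
Position of CBX2 peaks (coloured bars, 1 library per list) relative to the annotated 5′ end (0, dashed line) of the 10 genes, with the gene body in black; the x axis is distance in bp along the direction of transcription. In the Control list, 6 genes had a peak, each beginning 28 to 183 bp upstream of the start, and Fos, Jun, Myc and Atf3 had none.

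Of the AP-1 subunits, Junb alone was in a peak. JUNB pairs with FOS proteins to form AP-1, the dimeric factor that relays growth and stress signals. Its Control peak was 3600 bp wide (chromosome 8, 87499201 to 87502800), whereas no EZHIP or K27M peak lay within 5000 bp of it. The nearest peaks were 4.27 Mb away in EZHIP and 0.316 Mb away in K27M, the latter being the K27M peak at Ier2. The Control peak covered 100% of the 1807 bp gene, reached 183 bp upstream of the start and ran 1610 bp past the 3′ end. Fos and Jun, which encode the partners of the classical AP-1 dimer, lay far from any peak. The nearest peak to Fos was 0.899 Mb away in K27M, 1.98 Mb in EZHIP and 6.01 Mb in Control, and the nearest to Jun was 4.60 Mb away in each list.

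Among the other immediate early genes, Egr1 was the only member with a peak in every list. EGR1 is a zinc finger transcription factor induced by serum and growth factors. Its Control peak was 5200 bp wide (chromosome 18, 35020801 to 35026000). The EZHIP peak measured 5000 bp (35020801 to 35025800) and the K27M peak 5600 bp (35020601 to 35026200). Every one of them contained the whole 3778 bp gene and the start of a predicted gene, Gm17507. The upstream edge lay 60 bp before the start in Control and EZHIP and 260 bp before it in K27M, and the downstream edge lay 1362, 1162 and 1562 bp past the 3′ end in the same order. The widths thus differed by 1 to 3 bins between lists. The next peak was 18.6 Mb away in Control and EZHIP and 7.53 Mb away in K27M, so the Egr1 peak stood alone.

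Ier2, which encodes a small nuclear protein induced by growth factors, lies 0.312 Mb from the Junb peak on chromosome 8 and had a peak in Control and K27M. The Control peak was 3000 bp wide (87183801 to 87186800) and the K27M peak 2800 bp (87184001 to 87186800). Both shared the upstream edge, 49 bp before the start, and covered all of the 1522 bp gene. They ran 1429 bp past its 3′ end in Control and 1229 bp in K27M. The nearest EZHIP peak was 3.95 Mb away.

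Ier3, which encodes a stress-inducible regulator of cell survival, had a single peak, in Control, that measured 1200 bp (chromosome 17, 35958601 to 35959800). This peak began 28 bp before the start, ended 68 bp short of the 3′ end and covered 94.5% of the 1240 bp gene. It was one of 9 Control peaks of that width, the narrowest in the list, whereas the narrowest peaks of the EZHIP and K27M lists measured 2200 bp. A peak as narrow as that at Ier3 was therefore not found anywhere in the other lists, and whether the smallest size called differed between libraries was not tested. The nearest peaks to Ier3 were 329 kb away in EZHIP and 324 kb in K27M. From Myc, which encodes a transcription factor that drives growth, the nearest peak was 11.1 Mb away in EZHIP, 13.1 Mb in Control and 13.8 Mb in K27M.

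Of the stress-response genes, Ddit3 encodes CHOP, a transcription factor of the unfolded protein response, and Atf3 encodes a member of the ATF/CREB family that many stresses induce. The Control peak at Ddit3 was 2400 bp wide (chromosome 10, 126727801 to 126730200) and began 29 bp before the start. It covered only 43.0% of the 5515 bp gene and ended 3144 bp before its 3′ end, the least complete cover among the 6 genes. The nearest peak was 0.24 Mb away in K27M and 6.25 Mb away in EZHIP. At Atf3 the nearest peak was 1.01 Mb away in Control and K27M and 35.4 Mb away in EZHIP.

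Actb, which encodes cytoplasmic beta-actin, had the widest peak among these genes in Control, at 5600 bp (chromosome 5, 143663001 to 143668600). In K27M it measured 5000 bp (143663601 to 143668600). The upstream edge, 167 bp before the start, was the same in both lists, and both peaks covered all of the 3640 bp gene. The K27M peak ended 600 bp, or 3 bins, earlier, since it ran 1193 bp past the 3′ end against 1793 bp in Control. In EZHIP the nearest peak was 84.6 kb away, which was the closest peak to any member outside the 5000 bp limit, so the choice of that limit decided no call.

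The upstream reach of these peaks was compared with that of other peaks at gene starts. The choice of genes had used the narrow width of 3 of these peaks. It had also used that the starts of Junb, Ddit3, Ier3 and Actb lay inside Control peaks. A narrow peak that holds a start can reach only a short way upstream of it. The members and this measure were also chosen with earlier results known. The comparison is therefore not independent of the choice and only describes these peaks. Peaks containing exactly 1 start of a protein-coding gene served as the comparison, which leaves out the Egr1 peak. In Control, the upstream reach of the 6 member peaks, Egr1 included, ran from 28 to 183 bp, or 1.15 to 5.08% of the peak width. The 105 peaks at other genes had a median upstream reach of 4304 bp (middle 50%, 2199 to 6965 bp), or 34.3% of the width (24.8 to 52.7%). The 20 other peaks of 1200 to 5600 bp, the range of the members, had a median upstream reach of 1391 bp (955.75 to 2410 bp), or 36.5% of the width. Their genes were also longer, with a median of 13057.5 bp against 1807 bp at the members other than Egr1, and the part of gene length in the difference was not tested. An upstream reach of at most 400 bp, or 2 bins, was found in 5 of 5 member peaks with exactly 1 start. The Egr1 peak also met this limit but is outside the count. Among the 105 others the limit was met by 2 (1.9%, exact 95% interval 0.232 to 6.71%, counting error only). Both of these were among the 20 peaks of the members' widths, where they made up 10.0% (1.23 to 31.7%). This limit was set after the values were seen. The 2 genes were Cyr61 and Hist1h1e, of which the former is itself an immediate early gene and the latter encodes a linker histone.

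In the other lists the members' peaks also had a short upstream reach. The Egr1 peak, which also holds the start of Gm17507, is again outside the comparison set. In K27M the reach was 49 bp at Ier2, 167 bp at Actb and 260 bp at Egr1. At 175 other genes the median was 4355 bp (2356.5 to 7600 bp), and 4 (2.29%, 0.626 to 5.75%) reached at most 400 bp. Among the 34 of these peaks that measured 1200 to 5600 bp, the median was 1671.5 bp and 2 (5.88%, 0.72 to 19.7%) met the limit. In EZHIP the reach was 60 bp at Egr1. At 102 other genes the median was 2667 bp (1573 to 6290.5 bp), and 7 (6.86%, 2.8 to 13.6%) reached at most 400 bp. Among the 30 of these peaks that measured 1200 to 5600 bp, the median was 1540 bp and 5 (16.7%, 5.64 to 34.7%) met the limit. For scale, the peak at Sox2, a developmental regulator held by all lists, measured 23.4 kb in Control and reached 8326 bp upstream. Not all developmental regulators had so long a reach. Among the 7 short ones in EZHIP were Tcf21 (66 bp), Pax7 (155 bp), Pitx1 (247 bp) and Tbx2 (252 bp). Among the 4 in K27M were Pou4f3 (50 bp) and Prdm14 (356 bp).

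**Figure D2:**
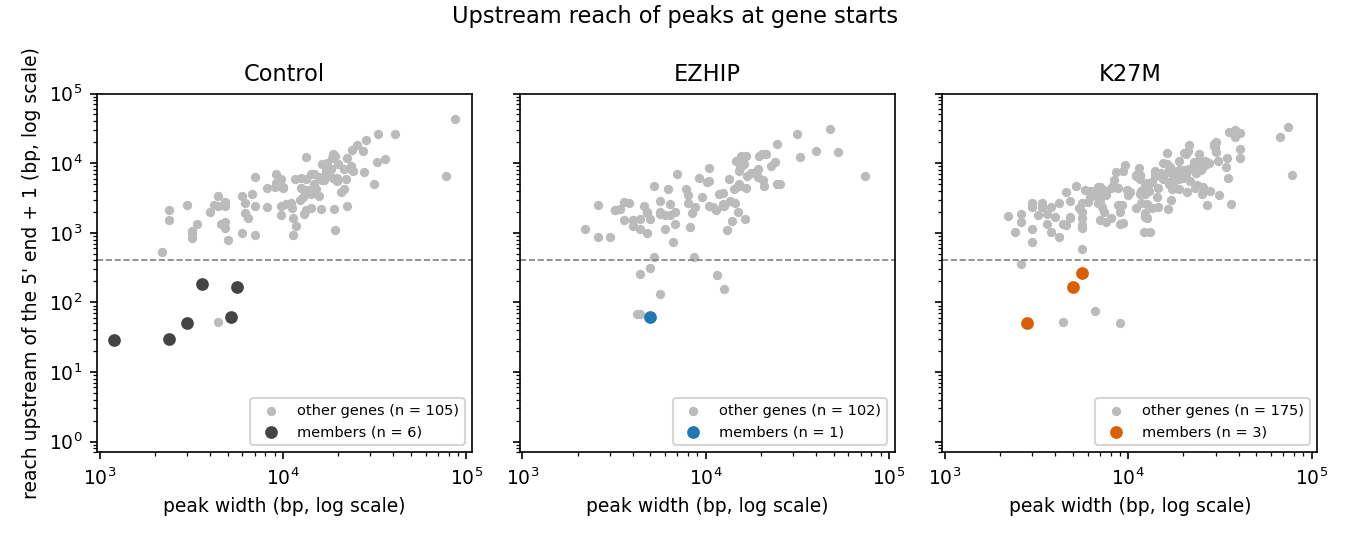
Upstream reach of peaks at gene starts (y axis, bp plus 1, log scale) against peak width (x axis, bp, log scale) in each list; coloured points are the members with a peak and grey points are peaks with exactly 1 protein-coding start at other genes, and the dashed line marks a reach of 400 bp. The 6 Control members lie at 28 to 183 bp, where the median of the 105 other peaks is 4304 bp.

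At the other end, in Control, 3 of the 5 member peaks with exactly 1 start ran past the 3′ end, by 1429 to 1793 bp. The Egr1 peak did so by 1362 bp. Among the 105 other peaks 58 (55.2%, 45.2 to 65%) ran past it, and 6 of the 20 of the members' widths (30.0%, 11.9 to 54.3%). Both features together, a start within 400 bp and an end at or past the 3′ end, were found at Junb, Ier2, Actb and Egr1 in Control, and among the other 105 peaks at Cyr61 and Hist1h1e.

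Where a member had a peak in more than 1 list, its edges matched more closely than those of most sites. Over the 208 sites where 1 Control peak met 1 K27M peak, the median Jaccard index (the length in both peaks over the length in either) was 0.788 and the median shift of an edge was 1200 bp. At Actb, Ier2 and Egr1 the index was 0.893, 0.933 and 0.929, higher than at 71.6, 81.2 and 80.3% of these sites, and no edge moved by more than 600 bp. The 208 sites were not matched to the members for width, and the part of peak width in the closer match was not tested. The K27M peaks were wider than Control at these sites by a median log2 ratio of 0.23. Against that, the ratio was -0.16 at Actb, -0.10 at Ier2 and 0.11 at Egr1, so Actb and Ier2 were among the sites that were narrower in K27M. Between Control and EZHIP, the Egr1 peaks had an index of 0.962, against a median of 0.775 over 183 sites.

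Most of the members' peaks held a CpG island window, as did most other peaks at gene starts. A CpG island window (500 bp, G+C content 55% or more, CpG count over that expected from base composition 0.65 or more) was found in 5 of the 6 Control peaks, the exception being Ddit3, and in 121 of 131 other Control peaks at gene starts (92.4%). The exception applies to the called peak: the 250 bases before the Ddit3 start, 29 of them in that peak, had 66.8% G+C and a CpG ratio of 0.825. The G+C content of the peaks was 59.9% at Junb, 56.9% at Ier2, 55.2% at Ier3, 54.6% at Egr1, 52.9% at Actb and 48.6% at Ddit3. The median was 49% at the other starts (46.3 to 51.6%), whose peaks were not matched for width. The genes without a peak did not lack such sequence, since Fos, Jun, Myc and Atf3 each had a CpG island window in the gene body.

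Copies elsewhere in the genome can draw reads to a gene, so the share of 32-base words found more than once was counted. It was 0% at Egr1, 0.236% at Ier2, 0.171% at Ier3, 0.448% at Junb and 3.59% at Ddit3 in the Control peaks. At Actb it was 11.9% in Control and 13.0% in K27M, and 17.8% over the gene body. Actb has processed pseudogenes, so its peak is the least certain of the 6 members in this respect. By contrast, the 39 Control-alone peaks without a gene start had a median of 66.7% repeated words (at every 100th base), and 23 of them were at or over 50%.

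The 250 bases before the starts of the members other than Actb were searched on both strands for the TATA box (TATAAA), the CCAAT box, the GC box (GGGCGG), the cAMP response element or CRE (TGACGTCA) and the part of it that also counts alone (TGACG), the AP-1 site (TGANTCA), the E-box (CACGTG) and the CArG box bound by serum response factor. A CArG box, present in 1.34% of 22375 promoters, was found at Egr1 105 and 83 bases before the start. A full CRE, present in 1.91%, was found at Ier2 45 bases before the start, inside the called Control peak, whose edge lay 49 bases before it. That margin is smaller than the 200 bp bin, so whether the element lay in the bound region is not resolved. An AP-1 site (6% of promoters) was found among them at Ddit3 alone, 223 bases before the start. It lay outside the called peak, also by less than a bin. TATAAA (12.3%) lay 30 bases before the start at Junb, 33 at Fos and 35 at Myc, hence both with and without a peak. The CCAAT box (35.0%) was found at Junb, Ddit3, Ier3, Egr1 and Jun, of which only Jun had no peak, and the GC box (39.6%) at Ier3, Fos, Jun, Atf3 and Myc, of which only Ier3 had one. TGACG outside a full CRE (19.4% of promoters hold TGACG) was found at Junb, Egr1 and Fos, and the E-box (6.52%) at none of them. These matches describe the letters and not occupied sites.

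To place the members among genes of their kind, 5 lists were read, 113 genes in all with the 10 members included. They were drawn up with earlier results known. A peak on the extended gene body was found at 11 of the 113 (9.73%) for Control, 7 (6.19%) for K27M and 6 (5.31%) for EZHIP. Without the members the counts were 5 of 103 genes in Control, 5 in EZHIP and 4 in K27M. Over all protein-coding genes, 1.49% had such a peak in Control, 1.78% in K27M and 1.44% in EZHIP, and over all annotated genes, noncoding ones included, 1.39%, 1.63% and 1.27% did. By list, the AP-1 subunits had 1 of 15 genes with a peak in Control, which was Junb, and 0 of 12 in any list without the members. The integrated stress response and ATF genes had 2 of 22 in Control and 0 in the others, and without Ddit3 and Atf3 1 of 20, which was Atf4. The other immediate early genes had 4 of 38 in Control, 3 in K27M and 2 in EZHIP, and 1 of 34 in each list without the members. The members were chosen for their peaks, so the counts that include them are no evidence of a difference between the lists. The 10 heat shock and oxidative stress genes had 0 in each list, and the highly transcribed and housekeeping genes had 4 of 28 in each.

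**Figure D3:**
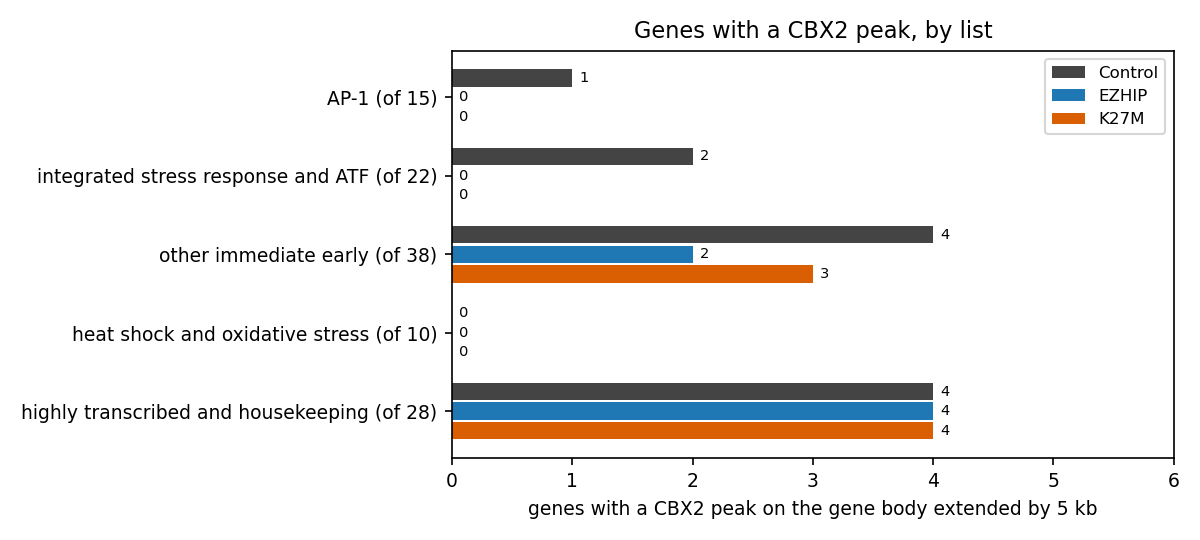
Number of genes (x axis) of each comparison list with a CBX2 peak on the gene body extended by 5 kb, in 1 library of each of Control, EZHIP and K27M, members included and list sizes in brackets. The Control counts of 1 AP-1 gene and 2 integrated stress response genes include Junb and Ddit3, which were chosen for their Control peaks, and the housekeeping genes had 4 in each list.

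The non-member genes with a peak numbered 8, and their peaks too, with 1 exception, began close to the annotated start. Cyr61, an immediate early gene for a secreted matrix protein, had a 4400 bp peak with the same edges in Control and K27M and none in EZHIP, the pattern of Actb and Ier2. It began 51 bp before the start and ran 1334 bp past the 3′ end. Atf4, the main transcription factor of the integrated stress response and an activator of Ddit3, had a 2400 bp peak in Control alone, which began 187 bp inside the gene, covered 92.1% of it and contained 1 of its 2 annotated transcript starts. Actg1, the other cytoplasmic actin gene, had a peak of 4600 bp in Control and 4400 bp in K27M and none in EZHIP. As much as 39.1% of the sampled words in its Control peak were repeated.

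The long noncoding RNA genes Malat1 and Neat1 had peaks in every list. The Malat1 peak was widest in Control (9200 bp), then K27M (8800 bp) and EZHIP (8400 bp), and covered the whole gene. The Neat1 peak measured 9600 bp in Control, 7600 bp in K27M and 6600 bp in EZHIP and covered the first 45.6, 36.0 and 30.2% of its 20771 bp in that order, as Ddit3 was covered in part. Another 3 genes went the other way and had a peak in EZHIP alone, namely Id3 (2600 bp), an inhibitor of bHLH factors, Ubb (4200 bp), a polyubiquitin gene, and Eef1a1 (5400 bp), a translation elongation factor. Repeated words made up 29.6% of those sampled at Eef1a1, 23.8% at Ubb and 0% at Id3. Leaving out Eef1a1, whose peak began 7358 bp inside a gene model with a distant upstream start, the upstream edges of the other 13 peaks lay between 189 bp inside the gene and 329 bp before it.

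**Figure D4:**
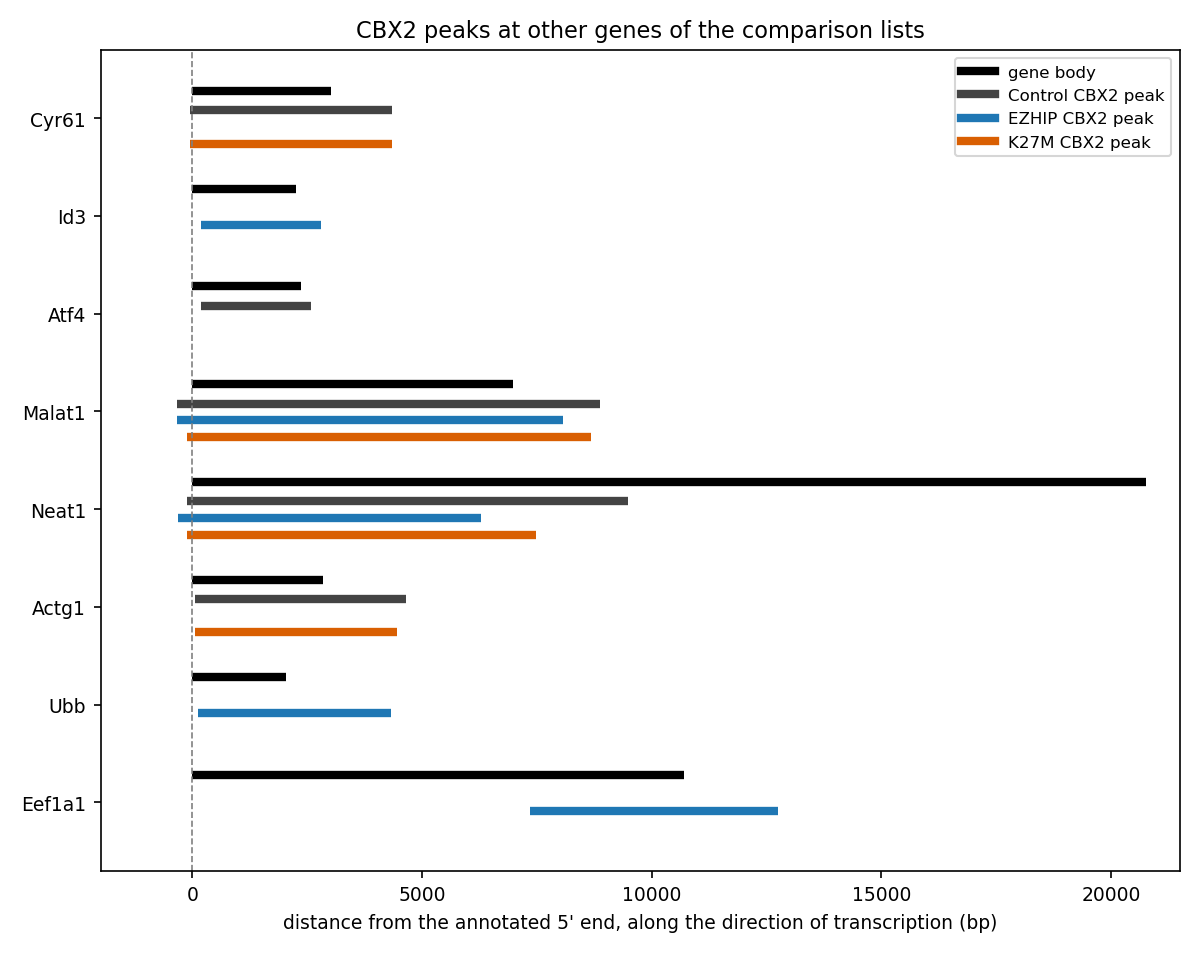
CBX2 peaks (coloured bars, 1 library per list) at the 8 non-member genes of the comparison lists that had one, drawn by distance in bp along transcription from the annotated 5′ end (0), with gene bodies in black. Cyr61 and Actg1 have peaks in Control and K27M, Atf4 in Control, Id3, Ubb and Eef1a1 in EZHIP, and Malat1 and Neat1 in every list.

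The genes most like Junb, Ddit3 and Ier3 in their pattern over the lists were sought among the 44 Control peaks that overlapped no other list. Of these, 5 (11.4%, 3.79 to 24.6%) contained a protein-coding start, so Junb, Ddit3 and Ier3 had only Gm17731 and Hist1h1e for company. The peak at Gm17731, a predicted gene, was 2200 bp wide, 200 bp from the median of the 3 members (2400 bp), and that at Hist1h1e was 1200 bp wide, 1200 bp from it. The Hist1h1e peak began 29 bp before the start and covered the whole 748 bp gene, and the Gm17731 peak began 532 bp before the start. Peaks at starts in K27M alone numbered 51 of 91 (56.0%, 45.2 to 66.4%) and those in EZHIP alone 12 of 47 (25.5%, 13.9 to 40.3%), with median widths of 5600 and 4200 bp against 2200 bp in Control. Of the 47 K27M-alone peaks with exactly 1 start, the median upstream reach was 2232 bp (1415.5 to 3758.5 bp).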

How the data were processed

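CBX2 ChIP-Seq libraries of MEFs (Control, EZHIP and K27M, 1 each) were analysed. Per the labels and methods, the authors digested crosslinked chromatin with micrococcal nuclease, aligned reads to mm9 with Bowtie 1.0.0 at default settings, and called broad peaks for each library with MOSAiCS-HMM (FDR 0.1, maximum gap 10000, minimum size 1000, threshold 8). Whether an input or scaling entered the calls is not stated, and depth is unknown. The deposited lists held 289 Control, 255 EZHIP and 327 K27M peaks as chromosome, start and end in whole 200 bp bins, with no height or score.

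Positions are 1-based on mm9, genes came from GENCODE vM1 and sequence from NCBIM37, the same assembly. The 5′ end was the most upstream annotated base. Intervals are exact Clopper-Pearson 95% intervals for counting error only. Overlap and reach were tested on simulated data, recovering 200 of 200 planted peaks (Python 3.11.15, pandas 2.3.3, SciPy 1.17.1).

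The members, gene lists, motifs and measures were chosen with earlier results of these data known. Text names the members, list genes with a peak, genes with a Control-alone peak at the start, and some genes with a short upstream reach. A gene of the comparison lists and a promoter sequence are not reported here.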

Additional observations from a re-analysis of the deposited data

Results flagged for a closer look

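Egr1 was the only member whose change in peak width could be compared in both lines, and the changes had opposite signs. The log2 ratio to Control was -0.057 in EZHIP (5000 against 5200 bp) and 0.107 in K27M (5600 against 5200 bp). With 1 library of each line this difference was not tested, and it amounts to 1 bin in EZHIP and 2 bins in K27M.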

How the results depend on the processing

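Of 106 alternative values for 26 results, 83 stayed within the interval, or within 1.5 times for a count, and 23 moved. Reversal was not a label that could be given. Some values could not move, since no peak outside the 5000 bp limit lay nearer than 84.6 kb to a member. Extending gene bodies by up to 50 kb or joining peaks closer than 10000 bp therefore could not change member counts or widths. Member counts moved by more than 1.5 times only with peaks of at least 5000 bp, to 2 in Control by either rule. In Control, 4 of the 6 member peaks are narrower than that. Smaller changes also occurred: K27M fell to 2 members at that minimum. The same number of widest peaks gave 4 members in Control and 2 in K27M, and the common minimum of 2200 bp gave 5 in Control. The Control-alone start peaks (5) moved most. They numbered 1 at the 5000 bp minimum, with none at a member, and 3 with the common minimum of 2200 bp, which removes Ier3. There were 2 with the same number of widest peaks (Junb and Ier2, whose K27M peak that rule removes), and 8 with a 50% overlap rule. Shares of all genes with a peak on the extended body were, at the 5000 bp minimum, 1.09% in Control, 1.05% in EZHIP and 1.35% in K27M, and by the 5′ end 0.764%, 0.746% and 1.01%. Equal numbers of peaks gave 1.41% and 1.05% in K27M. Without extension they were 1.19%, 1.22% and 1.48%, with 2 kb 1.32% in Control, with 50 kb 2.81%, 2.57% and 3.42%, and over all annotated genes 1.27% in EZHIP. A limit of 1000 bp, added after the data were seen, gave 7.62% of other Control start peaks with a short upstream reach. Causes beyond what a setting removes were not examined. No paired analysis was possible because there was a single library of each line. Unknown depth limits every absence of a peak.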
